A study of Danio rerio with 30 samples.

Results

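The comparison described here sets 1 library of zebrafish embryos injected with atf6-N mRNA against 1 library injected with mRNA for NLS-mCherry, a red fluorescent protein directed to the nucleus. Both mRNAs were given at 40 pg at the 1-cell stage, and whole embryos of the TL/AB strain were taken at 8 hpf (hours post fertilization), during gastrulation. In both libraries the embryos were also xbp1 crispants: Cas9 and guide RNAs against xbp1 had been injected, so xbp1 can be edited in some cells and not in others. About 30 embryos were pooled per library and profiled with the V3 single-cell chemistry of 10x Genomics. The 2 libraries are 2 of the 22 with count data available here, of the 30 that the labels list. After barcodes under 1000 UMIs (unique molecular identifiers, each counting 1 captured mRNA molecule) or over 10% mitochondrial UMIs were left out, 3262 atf6-N cells and 3377 mCherry cells remained. Because each side has 1 pooled library, no spread between embryos or injections can be had. The intervals below are 95% counting intervals and cover counting error only.

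Atf6 is a membrane protein of the endoplasmic reticulum (ER) and one of the sensors of the unfolded protein response. When unfolded proteins build up, it moves to the Golgi, where the site-1 and site-2 proteases cut it and release its cytosolic N-terminal part, a bZIP transcription factor that enters the nucleus. In mammalian cells that fragment is known for raising ER chaperone and ER-associated degradation genes. Xbp1, the target of the guides, is another bZIP factor of this response and shares many ER target genes with it. The counts per gene do not tell injected from endogenous atf6 mRNA.

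The libraries were of like size, with 68183077 UMIs in atf6-N and 61234123 in mCherry, and medians of 24936 and 15533 UMIs per cell. They shared 4 barcodes, 0.123% of the smaller library. The other 4 at 8 hpf give context. Embryos with creb3l1-N or creb3l2-N mRNA (N-terminal forms of related membrane-bound bZIP factors) had the same 40 pg dose and the same xbp1 crispant background. Embryos with full-length creb3l2 mRNA (40 pg) and a second mCherry library (125 pg) carry no xbp1 guides in their labels. At 12 hpf the libraries used are 1 of atf6 crispants and 2 of tyr crispants, the loss-of-function control.

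The atf6 counts followed the labels. In UMI counts scaled to a library total of 1000000 (CPM) over the whole embryo, atf6 stood at 416 in atf6-N against 48.3 in mCherry 40 pg, 83.4 in creb3l1-N, 103 in creb3l2-N, 68.2 in creb3l2-full and 52.9 in mCherry 125 pg. The atf6-N library was the highest, 8.61-fold over mCherry 40 pg (interval 8.29 to 8.95). At 12 hpf the atf6 crispants had 9.66 CPM of atf6 and the tyr crispants 54.1 and 40.4.

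Among the other sensors and factors of the response, eif2ak3 (PERK, the ER kinase that phosphorylates eIF2alpha) was by far the most changed. It had 86.4 CPM in atf6-N and 1.39 in mCherry 40 pg, a ratio of 62.3 (50.3 to 78.1), with 7.48 in creb3l1-N, 8.51 in creb3l2-N, 1.46 in creb3l2-full and 1.83 in mCherry 125 pg. A single cluster described further below held 69.5% of its UMIs in atf6-N, and the other atf6-N cells had 28.7 CPM. In the named cell classes with eif2ak3 UMIs in mCherry, its ratio was smaller, from 13.8 to 31.4. The xbp1 mRNA, which remains countable in crispants, was 255 CPM against 129, a ratio of 1.97 (1.92 to 2.03) that falls just short of 2-fold. In the cell classes described below it ran from 0.69 (0.64 to 0.74) in hatching gland-like cells, at 1081 against 1567 CPM, through 1.13 (1.07 to 1.19) in notochord-like to 3.74 in presomitic and marginal mesoderm-like and 5.70 (5.203 to 6.26) in anterior neural ectoderm-like cells, at 221 against 38.7 CPM. It was below 1 in hatching gland-like cells, which had the highest mCherry level. Over the whole embryo it stood at 419 in mCherry 125 pg, whose embryos have no xbp1 guides. The third sensor gene, ern1 (IRE1alpha, which splices xbp1 mRNA), was level at 11.7 and 12.1 CPM, as were mbtps1 and mbtps2, the site-1 and site-2 proteases, at 0.93 and 1.014 times the mCherry level. Of the injected relatives, creb3l1 was 0.72 and creb3l2 1.32 times the mCherry level. In all, 2 of the 8 tested factors, eif2ak3 and atf6 itself, were past 2-fold.

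Over the whole embryo, 8158 genes had a mean of at least 5 CPM in the pair of libraries and were compared. Of these, 644 (7.89%) were at least 2-fold higher with atf6-N and 138 (1.69%) at least 2-fold lower, and the median log2 ratio was -0.01. The higher genes held 7.29% of all UMIs in atf6-N and 1.05% in mCherry. Their ratios were spread widely, with 369 between 2-fold and 4-fold and 42 over 100-fold. Near the threshold, 92 genes had ratios from 2 to 2.2 and 156 from 1.8 to 2. The 2 mCherry libraries, which differ in dose and in the xbp1 guides, give a scale for differences without an injected factor: 99 genes (1.26%) were at least 2-fold higher at 125 pg and 200 (2.55%) lower. Against both mCherry libraries, 497 of 7967 genes (6.24%) were at least 2-fold higher with atf6-N, and 48 (0.602%) at least 2-fold lower.

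ER lumen chaperones made the clearest group. Of 19 tested members, 17 were at least 2-fold higher and none lower, the median log2 ratio was 5.25, and 7 members were past 100-fold. The list as a whole took 0.0775% of the UMIs of the mCherry library and 2.30% of those of atf6-N. It took 0.121% in creb3l1-N, 0.160% in creb3l2-N, 0.122% in creb3l2-full and 0.0891% in mCherry 125 pg, so atf6-N lay far above the other 5 libraries.

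A background of 7.89% of all tested genes was past 2-fold upward. The most abundant chaperones were the ER Hsp90 and Hsp70 proteins. For hsp90b1 (Grp94), atf6-N had 6562 CPM and mCherry 40 pg 29.1, while creb3l1-N had 34.8, creb3l2-N 52.1, creb3l2-full 66.1 and mCherry 125 pg 41.6, and the ratio was 225 (215 to 236). For hspa5 (BiP, the ER Hsp70), the values were 4586 and 34.3, then 39.6, 72.4, 151 and 77.1 in the same order, with a ratio of 134 (128 to 140). Against mCherry 125 pg the hspa5 ratio was smaller, 59.5. For both genes the atf6-N library stood apart from the other 5, of which creb3l2-full was the highest.

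The partners of BiP were high with it. The nucleotide exchange factors hyou1 and sil1 went from 20.7 to 2075 CPM and from 7.01 to 99.1. The ER J-domain proteins dnajb9b, dnajc3a, dnajb11 and dnajc3b had ratios of 463 (235 to 1073), 93.9 (69.4 to 131), 13.1 and 10.8. Sdf2l1, which works with BiP and J-domain proteins, stood at 577 against 19.9 CPM. The lectin chaperones calr, calr3a and calr3b, which bind glycoproteins, were 104-fold, 37.9-fold and 19.8-fold higher, and their membrane-bound relative canx was 4.401-fold higher (4.31 to 4.49). Creld2 and creld1b, ER proteins of the CRELD family, had ratios of 186 and 330, and manf, a secreted and ER-resident stress protein, had 59.6. The prolyl isomerase ppib was 9.17-fold higher. The members near the control level were dnajc10, an ER reductase with a J domain, at 28.5 against 33.5 CPM, and sdf2, at 25.6 against 24.04.

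**Figure D1:**
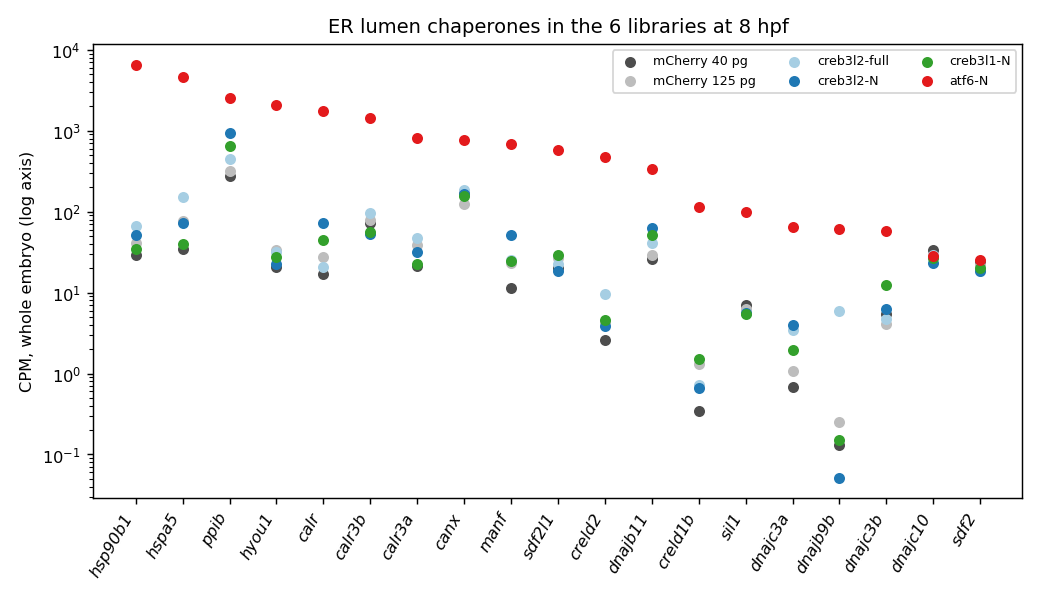
CPM of the 19 tested ER lumen chaperones over the whole embryo in the 6 libraries at 8 hpf (log axis, 1 point per library). The atf6-N points stand far above the other libraries for 17 genes, with hsp90b1 at 6562 and hspa5 at 4586, and among them for dnajc10 and sdf2.

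Protein disulfide isomerases and oxidases, which form and shuffle disulfide bonds in the ER, were split. Of 12 tested, 5 were at least 2-fold higher. Pdia4 was 764 CPM against 6.71 (ratio 114, 103 to 126), pdia3 1373 against 38.6 and pdia6 3104 against 87.7. Txndc11 and ero1b, the latter an oxidase that recharges the isomerases, followed at 5.79-fold and 2.93-fold. The archetypal isomerase p4hb was 1.46-fold higher (1.43 to 1.49) and txndc5 was level at 1.009.

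In ER-associated degradation, which extracts misfolded proteins and hands them to the proteasome, 10 of 17 tested genes were at least 2-fold higher and none lower. The members of the extraction complex were among them. Derl3 stood at 118 CPM against 1.13 (ratio 105, 82.5 to 134), herpud1 at 142 against 5.29, os9 at 80.5 against 3.67, sel1l at 401 against 21.4, edem1 at 297 against 24.6 and the ubiquitin ligase syvn1 at 90.2 against 9.21. The cytosolic ATPase vcp, which pulls substrates out, was already abundant and reached 1292 CPM against 229. The ubiquitin-conjugating enzyme ube2j1 was at 0.89 times the mCherry level, and ufd1l, a vcp cofactor, at 0.96.

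N-glycosylation and glycan trimming genes were moderately higher, 10 of 17 past 2-fold with a median log2 ratio of 1.102. The top members were ddost of the oligosaccharyltransferase, prkcsh of glucosidase II and uggt1, the folding sensor that puts glucose back on misfolded glycoproteins, with ratios of 4.82, 4.77 and 4.69. The count rests in part on genes close to the threshold: it was 5 without the cluster of cells described further below.

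Smaller shares of the genes for entry into the ER and for transport between ER and Golgi were past 2-fold. For translocation into the ER, 4 of 23 tested genes were past 2-fold (srp9 3.42, spcs3 2.81, tram2 2.53 and spcs2 2.51), while the channel subunits sec61a1, sec61b and sec61g were at 0.96, 1.095 and 0.87. In the COPII coat and cargo receptor list, which covers transport from the ER to the Golgi, 6 of 23 were past 2-fold. They were preb (16.9), which loads GTP on the coat GTPase, the receptors surf4l (12.0) and ergic3 (2.92), the cargo receptor mia2 (11.8), the KDEL receptor kdelr2b (5.23) and the coat subunit sec23b (2.97). The coat subunits sec23a, sec13, sec31a and sec24c ranged from 0.79 to 1.02. Of 16 COPI genes, which act in return transport, copz2 alone was past 2-fold, at 14.1 CPM against 1.93, and its count was 0 without that same cluster.

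The direct ratio of atf6-N to creb3l1-N and creb3l2-N uses no control library but the same atf6-N counts, so it is not an independent check of the split above. Of 8166 genes, 421 (5.16%) were at least 2-fold higher in atf6-N than in both and 547 (6.7%) at least 2-fold lower than in both. Chaperones had 17 of 19 members 2-fold above both libraries. The COPI list had 12 of 16 below both and none above, and collagen modification 6 of 11 below and none above. As a whole the COPI list took 0.170% of UMIs in atf6-N, 0.140% in mCherry 40 pg, 0.447% in creb3l1-N and 0.400% in creb3l2-N. Translocation had 9 of 23 below and 1 above (srp9), and COPII 11 of 24 below and 3 above (preb, mia2 and ergic3). An example of the coat genes is copb2, at 78.6 CPM in atf6-N, 58.7 in mCherry 40 pg, 536 in creb3l1-N and 334 in creb3l2-N. The KDEL receptor kdelr3 had 14.0, 13.4, 241 and 244 CPM in the same order. Among disulfide isomerases 5 of 13 were above both, and in ER-associated degradation 7 of 18.

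Some genes were high with all 3 N-terminal factors. Rcn3, a calcium-binding protein of the secretory pathway, had 357 CPM in atf6-N, 581 in creb3l1-N and 846 in creb3l2-N, against 1.68 in mCherry 40 pg and 2.25 in mCherry 125 pg. Its relative calua had 611, 155 and 219 CPM against 22.6 and 21.6. Both genes were also above the mCherry libraries in creb3l2-full, at 111 CPM for rcn3 and 85.6 for calua. In the calcium-binding list 7 of 12 genes were past 2-fold against mCherry 40 pg, among them the ER calcium pump gene atp2a2a at 12.4 CPM against 0.98 (ratio 12.7, 9.73 to 16.7). Atp2a2a was not high with the other factors, at 0.69 CPM in creb3l1-N and 0.81 in creb3l2-N. In collagen modification 6 of 11 were past 2-fold, led by the lysyl hydroxylase plod3 (275 against 34.96 CPM) and the collagen chaperone serpinh1b (347 against 108). Of the collagen chain genes themselves, 1 of 13 was abundant enough to compare, col18a1a, at 5.25 against 4.85 CPM.

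**Figure D2:**
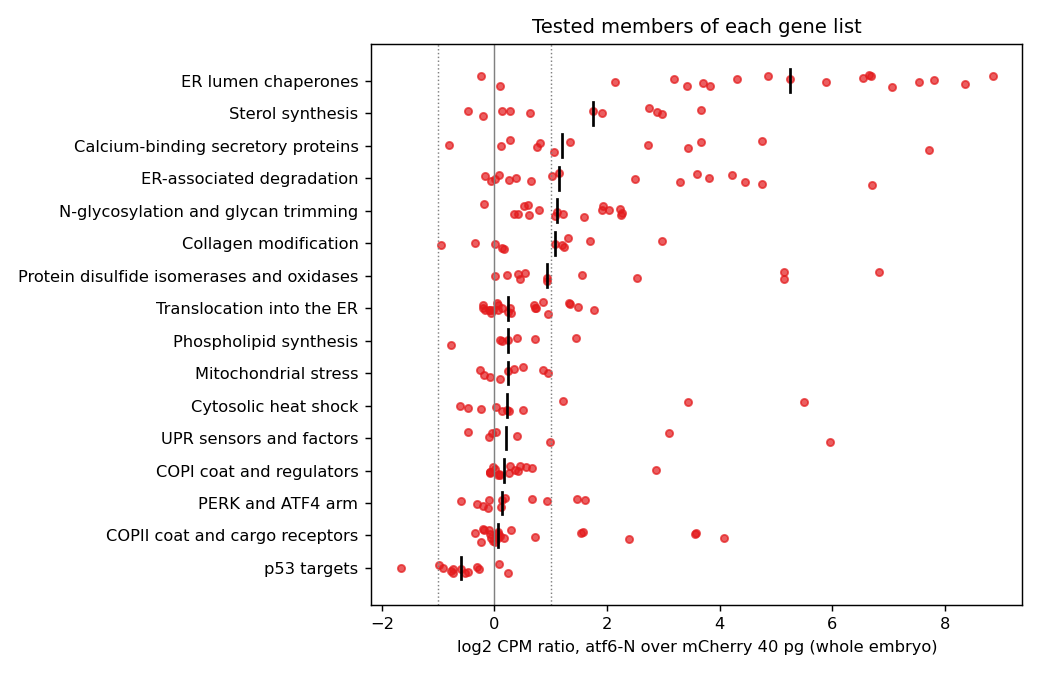
log2 CPM ratio of atf6-N over mCherry 40 pg for each tested member of the gene lists with at least 7 tested members (points) and the median of each list (black bar); dotted lines mark 2-fold. Chaperones are centred at 5.25, and the COPI and COPII lists near 0 with a few members far to the right.

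Other stress pathways moved less. Of 12 tested genes of the PERK and ATF4 arm, psph and psat1, enzymes of serine synthesis, were past 2-fold (3.03 and 2.75). Against mCherry 125 pg both were under 2-fold, at 1.97 and 1.51. The factor mRNAs atf4a and atf4b were at 0.87 and 0.93 times the mCherry 40 pg level, and trib3 and chac1, known ATF4 targets in mammals, at 1.098 and 1.089. Cytosolic heat shock genes had 3 of 11 past 2-fold. Hsp70.3 had 64.0 CPM in atf6-N, 1.42 in mCherry 40 pg and 2.40 in mCherry 125 pg, but 50.6 in creb3l1-N as well, and 5.43 in creb3l2-N. No tested mitochondrial stress gene of 9 and no p53 target of 13 was past 2-fold upward.

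The p53 targets, induced by DNA damage, depend on the control library. Against mCherry 40 pg their median log2 ratio was -0.59, and bbc3 (Puma, a pro-apoptotic protein) was the 1 member at least 2-fold lower, at 8.87 against 28.2 CPM. Against mCherry 125 pg, where 724 of 8110 genes (8.93%) were at least 2-fold higher and 162 (2%) lower, 9 of 12 tested p53 targets were at least 2-fold higher, and the bbc3 ratio was 7.72. In creb3l1-N and creb3l2-N bbc3 stood at 13.6 and 8.21 CPM, in creb3l2-full at 0.87 and in mCherry 125 pg at 1.15, so all 4 libraries with xbp1 guides lay above both libraries without them. The guides and other differences between these libraries cannot be told apart.

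Sterol synthesis was a further group with higher members. Of 11 tested, 6 were past 2-fold: msmo1 (12.8), ebp (7.85), mvk (7.41), fdps (6.68), dhcr7 (3.77) and mvda (3.37), all enzymes of the route from mevalonate to cholesterol. In CPM, fdps had 202 in atf6-N, 30.2 in mCherry 40 pg, 22.01 in creb3l1-N, 16.1 in creb3l2-N, 19.8 in creb3l2-full and 22.8 in mCherry 125 pg. It was high in atf6-N and within 2-fold of mCherry 40 pg in the others. Ebp was not: it had 31.2 CPM in atf6-N, 3.97 in mCherry 40 pg, 46.0 in creb3l1-N and 52.2 in creb3l2-N. Of 11 sterol genes compared with both creb3l1-N and creb3l2-N, 6 were at least 2-fold above both and 0 below both. The cluster of cells described further below held 57.3% of the msmo1, 44.6% of the mvk and 42.9% of the ebp UMIs of atf6-N cells. The regulator srebf2 was at 0.87 and the synthesis genes hmgcs1 and idi1 at 1.204 and 1.103. Of 7 phospholipid synthesis genes, chpt1 alone was past 2-fold, at 2.71, and it was higher still in creb3l1-N and creb3l2-N.

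The 20 highest ratios belonged mostly to genes outside the lists. Only 2 of them, dnajb9b and creld1b, are in any list. All 20 were under 1 CPM in mCherry 40 pg, which a choice by the highest ratio favours. Clstn3, a calsyntenin of neuronal membranes, had 497 CPM in atf6-N and 0.033 (2 UMIs) in mCherry 40 pg, a ratio of 15220 (4213 to 125684). Ldb3b, a relative of the muscle Z-disc protein LDB3, had 231 CPM against 1 UMI, a ratio of 14165 (2542 to 559506). The uncharacterised genes si:dkeyp-1h4.6 and zgc:92630 had 797 and 806 CPM, against 0.114 and 0.196.

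Further members were also low or at 0 in mCherry 40 pg. Matn1 (matrilin-1, a cartilage matrix protein) had 39.5 CPM against 1 UMI. The beta-tubulin tubb2 had 176 CPM against 0.474, and gyg1b, a glycogenin that primes glycogen, 28.5 against 0.049. A further 5 genes had no UMI in mCherry 40 pg, and with 3 UMIs taken as the floor their levels were at least 1099-fold higher for lgals2b (a galectin, 53.8 CPM), 335-fold for cryba2b (a beta-crystallin), 319-fold for c1qtnf1, 276-fold for si:ch211-176g6.2 and 228-fold for cdk5r2a (an activator of Cdk5). In creb3l1-N and creb3l2-N, 19 of the 20 stayed under 2 CPM. The exception, zgc:92630, had 54.9 and 23.8 CPM there.

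The 10 genes with the largest excess of atf6-N over both creb3l1-N and creb3l2-N were c1qtnf1, cdk5r2a, lgals2b, ldb3b, si:dkeyp-1h4.6, matn1, zgc:158659, zgc:153426, gyg1b and ankrd13b, all among the 20 highest. Both rankings use the same atf6-N counts, which favours such an overlap. Of the 10, zgc:153426 had 73.5 CPM in atf6-N, 0.068 in creb3l1-N and 0.041 in creb3l2-N.

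The response was then followed into cell classes, which were named from marker genes after clustering without the gene lists and without genes that differ between libraries. Of the named classes, 8 had at least 50 cells in both libraries, and 42.7% of atf6-N and 41.7% of mCherry cells stayed unnamed. The chaperone list was at least 2-fold higher in all 8. In notochord-like cells it took 2.97% of UMIs with atf6-N and 0.0887% with mCherry, a ratio of 33.5 (32.2 to 34.8). Hatching gland-like cells, the precursors of a secretory gland, had 2.88% and 0.141% (ratio 20.5, 19.5 to 21.5). Anterior and posterior neural ectoderm-like cells had ratios of 30.0 (29.4 to 30.6) and 28.8 (28.1 to 29.5), yolk syncytial layer-like cells 27.6 (22.3 to 34.4), presomitic and marginal mesoderm-like cells 26.2 (25.4 to 27.0) and non-neural ectoderm-like cells 24.7 (23.9 to 25.5).

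Periderm-like cells, the outer covering layer, had the smallest ratio to mCherry 40 pg, 9.73 (9.14 to 10.4), from 0.137% to 1.33%. Their mCherry 40 pg level was among the highest of the 8, beside hatching gland-like cells. In mCherry 125 pg the list took 0.0829% in periderm-like and 0.208% in hatching gland-like cells (81 and 20 cells). The order of the classes by ratio thus depends on the control library. Periderm-like and yolk syncytial layer-like cells were also shallow, with median depths of 1910 and 1448 UMIs in atf6-N against 26497 or more in the other classes. In creb3l1-N and creb3l2-N the list took between 0.0760% and 0.248% of UMIs in these classes.

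**Figure D3:**
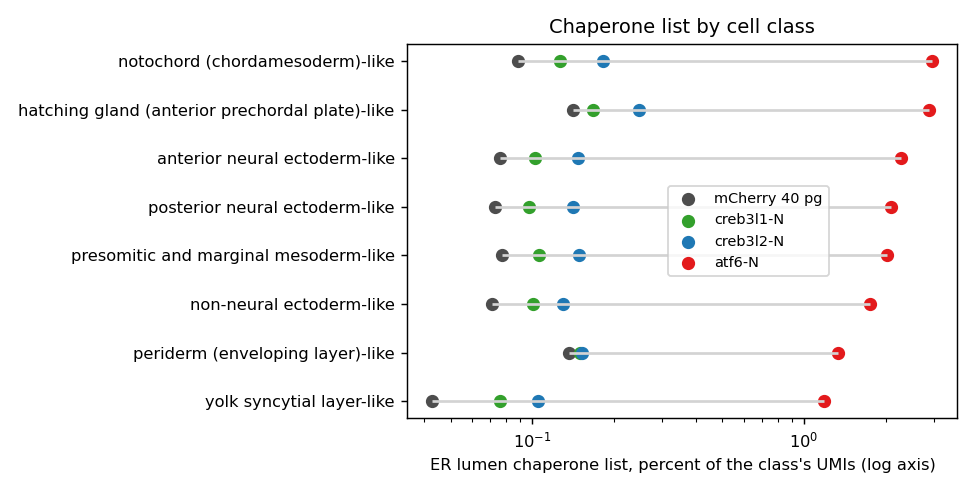
Share of UMIs in the ER lumen chaperone list for 8 cell classes in 4 libraries (log axis, 1 point per library and class). The atf6-N points lie between 1.18% and 2.97%, and all points of the other libraries at or below 0.248%.

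Hsp90b1 and pdia4 were also at least 2-fold higher in all 8 classes, but neither had its smallest ratio in periderm-like cells. There the hsp90b1 ratio was 217.2 (121.2 to 435.6, on 11 mCherry UMIs) and that of pdia4 145.2 (on 2 mCherry UMIs). Pdia3 and pdia6 had their largest class ratios in periderm-like cells, 64.92 and 90.93, on 10 and 13 mCherry UMIs. The hsp90b1 ratio ran from 133 (51.8 to 490) in yolk syncytial layer-like to 299 (239 to 380) in notochord-like cells. That of pdia4 ran from 37.3 (6.36 to 1503, on 1 mCherry UMI) to 146 (116.3 to 184.5). Clstn3 was found in every class with atf6-N, from 208 CPM in yolk syncytial layer-like to 647 in notochord-like cells. The degradation genes spanned wider ranges, with few mCherry UMIs behind several of the ends. Os9 ran from 3.85-fold (1.28 to 15.6) in yolk syncytial layer-like to 50.4-fold (19.3 to 187) in notochord-like cells, with 4 mCherry UMIs in each. Herpud1 ran from 3.55-fold (1.75 to 7.97) in periderm-like to 28.8-fold (20.6 to 41.5) in posterior neural ectoderm-like cells. Of the 7 classes with at least 20 derl3 UMIs, periderm-like cells had none in mCherry and so no ratio. Elsewhere derl3 ran from 30.7-fold (15.4 to 71.7) in non-neural ectoderm-like to 262-fold (89.3 to 1275) in notochord-like cells. Bhlha15 (Mist1, a secretory cell factor) was too low over the whole embryo to be compared by the filter, with 173 UMIs in atf6-N and 66 in mCherry, a ratio of 2.35 (1.76 to 3.18). Hatching gland-like cells held 65 and 63 of these UMIs, a ratio of 0.998 (0.695 to 1.43).

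Across lists, disulfide isomerases were between 7.83-fold (non-neural ectoderm-like) and 10.8-fold (hatching gland-like) higher as a sum, and degradation genes between 3.43-fold (yolk syncytial layer-like) and 6.096-fold (hatching gland-like). The COPI list lay between 1.05 and 1.33 in every class, and sterol synthesis between 1.07 (yolk syncytial layer-like) and 2.14 (hatching gland-like).

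The atf6-N cells differed widely among themselves. To compare cells at 1 depth, each was thinned to 3000 UMIs, which left out 491 atf6-N and 711 mCherry cells with fewer. The median chaperone share was then 2.30% in atf6-N cells (0.167% at the 5th percentile, 5.27% at the 95th) and 0.0667% in mCherry cells. Without thinning the medians were 2.30% and 0.0734%. Of 2686 atf6-N cells, 2500 (93.1%, 92.05 to 94.01) lay above 0.2%, the 95th percentile of mCherry cells. The remaining cells overlapped the mCherry range.

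By class, the share of cells above the mCherry limit of the class was 97.8% (92.2 to 99.7) in notochord-like, 95.3% (93.1 to 97.0) in anterior neural ectoderm-like, 92.8% in posterior neural ectoderm-like, 90.9% in non-neural ectoderm-like and 88.0% (83.2 to 91.8) in presomitic and marginal mesoderm-like cells. Hatching gland-like cells had 95.1% of 41 and periderm-like cells 86.5% of 37, with wide intervals. A total of 3 clusters with high mitochondrial shares also had high chaperone shares: in the largest, 145 atf6-N cells had medians of 6.93% mitochondrial UMIs and 5% chaperone UMIs, and the part of cell condition in this was not tested. Free RNA in the droplets can add to these shares, and its part was not tested either.

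**Figure D4:**
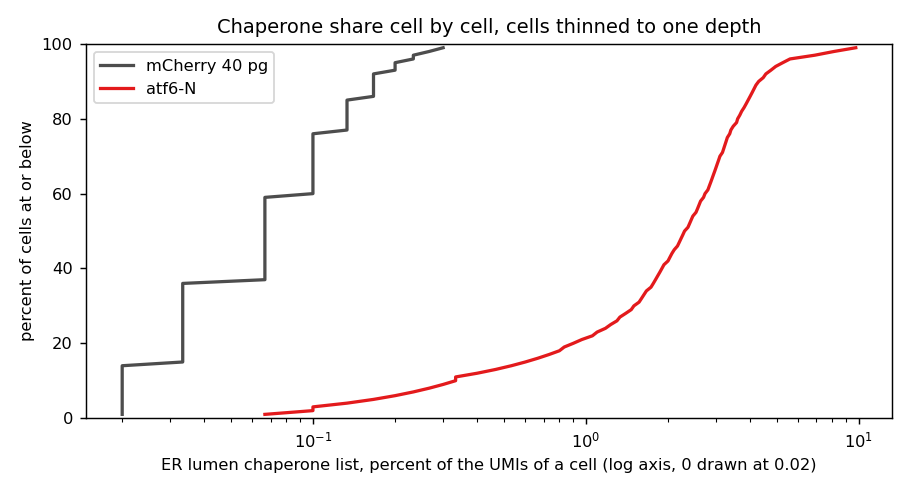
Cumulative percent of cells (vertical axis) by the share of their UMIs in the ER lumen chaperone list (log axis, 0 drawn at 0.02), for 2575 mCherry and 2686 atf6-N cells thinned to 3000 UMIs. The medians are 0.0667% and 2.30%, and the lowest atf6-N cells overlap the mCherry curve.

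Cells with more atf6 mRNA had more of the raised mRNAs. The 1960 atf6-N cells with at least 10000 UMIs were divided into 4 equal bins by atf6 UMIs per 10000, with median depths between 29173 and 31986 UMIs. The chaperone list took 0.961%, 1.70%, 2.80% and 3.63% of UMIs from the lowest to the highest bin. Cells of the lowest bin, with at most 0.983 atf6 UMIs per 10000, were still far above mCherry cells of the same atf6 range, at 0.0740%. Of the 19 tested chaperones 18 were higher in each successive bin, dnajc10 being the exception, and the median ratio of highest to lowest bin was 4.68. The share of all genes that rise this way is not given here. The bins also differ in makeup, with 59.0%, 58.8%, 60.6% and 31.6% neural cells from lowest to highest.

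The steepness differed between genes. Hsp90b1 stood at 3297, 5546, 7960 and 8639 CPM, with little gain in the last step, and hspa5 at 1730, 3089, 5557 and 8102. Ldb3b went from 15.8 to 679 CPM, eif2ak3 from 4.04 through 5.94 and 24.3 to 322, and matn1 from 0.65 through 1.52 and 6.01 to 160. The 20 highest genes had a median ratio of 46.3 between the outer bins. Of the 10 lowest genes, quo had no UMI in the outer bins and so no ratio. The others had a median ratio of 1.79 (from 0.85 to 11.6). They were already low in the lowest bin, with dock11 at 2.34 CPM against 30.1 in mCherry cells of the same atf6 range. A further fall could thus hardly be seen, and whether they fall as atf6 rises cannot be told. These values share the cells and libraries with the atf6 counts, and are given as a description.

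**Figure D5:**
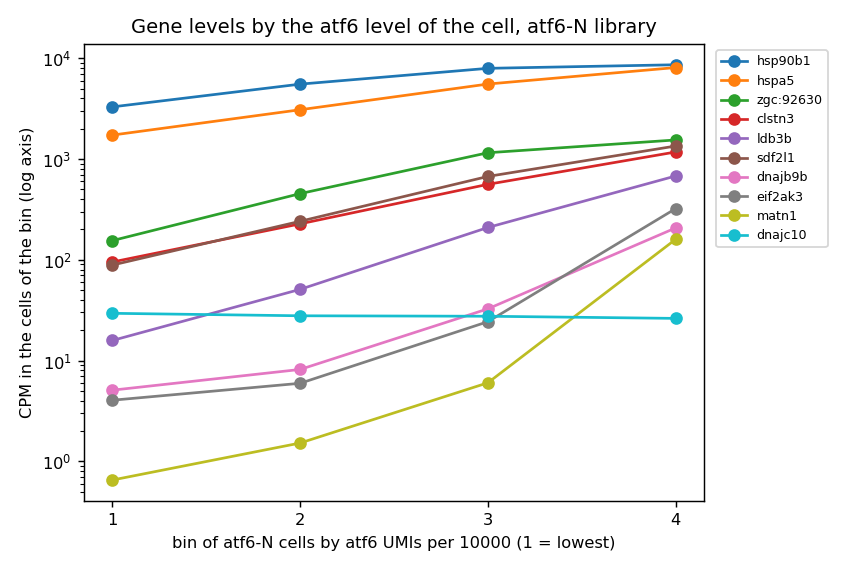
CPM of 10 genes (log axis) in 4 bins of the atf6-N cells ordered by atf6 UMIs per 10000. Hsp90b1 flattens near 8639 CPM, eif2ak3 and matn1 climb mainly in the highest bin, and dnajc10 goes from 29.4 to 26.2 CPM.

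Part of that last step lay in 1 cluster of cells. It held 240 of 3177 atf6-N cells (7.55%, 6.66 to 8.53), 2 of 3286 mCherry cells and none of the other 8 hpf libraries. Its leading genes (matn1, lgals2b and eif2ak3 at the top) are markers of no class. Some markers of different classes were higher in it. The anterior neural marker six3b had 234 CPM against 26.2 in the other atf6-N cells, and the germ cell marker ddx4 255 against 86.2. Of the germ cell markers, dazl, dnd1, gra, h1m and ca15b were also higher, at 3.39, 2.26, 2.19, 1.98 and 1.11 times the other cells. Nanos3 (14.7 against 25.3) and tdrd7a (1.09 against 2.29) were lower. Of the anterior neural markers, six3a (60.5 against 18.6) and otx2a (265 against 236) were also higher. Most others of that list were lower, with otx1 at 27.2 against 196.5. The cluster stayed unnamed. With 1 library per group it may be a feature of this library rather than a cell type. It made up 39.0% of the highest bin by atf6, and atf6 itself stood at 1808 CPM in it against 287 in the other atf6-N cells. It held 83.9% of the matn1 UMIs of atf6-N cells, 72.1% of lgals2b, 69.5% of eif2ak3, 51.7% of dnajb9b and 39.7% of fdps, but 15.95% of hspa5 and 15.3% of zgc:92630. With its cells left out, the highest bin had 3.42% of UMIs in chaperones, 94.8 CPM of eif2ak3, 493 of ldb3b and 21.1 of matn1. Over the whole embryo without that cluster, 495 genes were at least 2-fold higher in place of 644.

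Genes lower with atf6-N were fewer, and some of the lowest sorted the libraries in another way. Of the 138, 53 were also at least 2-fold lower than in mCherry 125 pg and 12 were at least 2-fold higher than there. Quo had 0.103 CPM in atf6-N and 0.309 in creb3l2-N, but 11.6 in mCherry 40 pg, 15.2 in creb3l1-N, 6.25 in mCherry 125 pg and 3.62 in creb3l2-full. Dock11, a guanine nucleotide exchange factor, had 2.93 and 3.33 CPM, then 34.1, 37.1, 21.4 and 15.6. Si:ch1073-190k2.1 had 4.28 and 2.19, then 131, 127, 83.4 and 42.7. In each of these, atf6-N and creb3l2-N were low together and the other 4 libraries high, with no overlap. Not all of the lowest genes did so: ca15b and tdrd7a were low in creb3l1-N as well, at 6.49 and 3.14 CPM. The share of all genes with this pattern was not counted.

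Of the 10 lowest genes, 9 were in atf6-N at most 0.5 times their creb3l1-N level, and 9 were within 2-fold of creb3l2-N. Over all genes compared, 763 of 8386 were at least 2-fold lower in atf6-N than in creb3l1-N. Only 14.7% of 8315 were past 2-fold either way from creb3l2-N, so lying within 2-fold of it is common. The 10 genes were also picked for low atf6-N values. They include ca15b and tdrd7a, germ cell genes, at 3.07 and 2.33 CPM against 44.3 and 15.4 in mCherry 40 pg. Among 7 tested markers of primordial germ cells, 5 were at least 2-fold lower, with nanos3 at 25.3 against 80.2 CPM, and the germ cell-like class held 6 atf6-N and 16 mCherry cells. The summed level of all markers of that class was 180 CPM in atf6-N, 183 in creb3l2-N and 203 in creb3l1-N. It was 389 in mCherry 40 pg, 331 in creb3l2-full and 591 in mCherry 125 pg. Low values were thus shared by the atf6-N, creb3l1-N and creb3l2-N libraries. What sets these genes apart between libraries was not tested.

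The shares of the named classes differed modestly between the pooled libraries, and those of some unnamed clusters differed more. Among the thinned cells, 1 unnamed cluster held 182 atf6-N and 43 mCherry cells and another 48 and 185. The cluster described above comes on top of these. In whole-embryo sums fewer cells of a type and less RNA per cell cannot be told apart. The share of non-neural ectoderm-like cells was 8.94% in atf6-N and 6.94% in mCherry, a ratio of 1.29 (1.08 to 1.54), and that of presomitic and marginal mesoderm-like cells 8.47% and 10.5%, a ratio of 0.80 (0.68 to 0.95). Notochord-like cells were at 0.76 (0.58 to 0.99). Non-neural ectoderm-like cells made up 10.7% of mCherry 125 pg, 9.09% of creb3l2-full, 8.50% of creb3l2-N and 5.78% of creb3l1-N. Presomitic and marginal mesoderm-like cells had 9.91%, 10.25%, 8.30% and 7.83% in the same order, and notochord-like cells 3.89%, 4.38%, 2.38% and 3.59%. The 2 mCherry libraries thus lay further apart in the non-neural share than atf6-N and mCherry 40 pg. Mesoderm markers leaned the same way: wnt8a, mespaa and myod1, of 15 tested, were at least 2-fold lower (wnt8a 116 against 246 CPM). All markers of the presomitic and marginal mesoderm-like class together summed to 1335 against 2236 CPM, with 1439 to 1881 in the other 4 libraries. Of 8 tested notochord markers, 0 were at least 2-fold lower, with noto and tbxta at 85.1 and 204 CPM against 170 and 390. The notochord markers summed to 677 CPM in atf6-N, 1055 in mCherry 40 pg and 676 in creb3l2-N. In creb3l1-N the sum was 839, in creb3l2-full 1019 and in mCherry 125 pg 911. The other classes had intervals that include 1.

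The 12 hpf libraries show the same genes where atf6 was targeted by guides and no factor mRNA is labelled. Hspa5 had 124 CPM in the atf6 crispants and 74.9 and 153 in the tyr crispants, and hsp90b1 18.4 against 19.8 and 31.9. Of the 19 chaperones, 14 lay between the tyr libraries, 3 below both and 2 above both, and the median ratio to their mean was 0.97. Of the 20 genes highest with atf6-N, 13 had at least 20 UMIs in the tyr libraries together, of which 6 lay below both, 3 above both and 4 between. No such counts over all genes stand beside them, so whether these shares are unusual cannot be told. With 1 atf6 crispant library, these are values and not tests.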

How the data were processed

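Single-cell RNA-seq libraries of whole zebrafish embryos were analysed from the authors' deposited count matrices, which hold whole-number UMI counts per gene and cell barcode, not normalized. The 8 hpf matrices were made with Cell Ranger 6.1.2, per the file headers. At 12 hpf the atf6 crispant and 1 tyr crispant matrix were made with 3.1.0 and the other with 6.1.2. The genome build and annotation are not given in the sources used here, so no coordinates or sequences are printed.

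Barcodes with at least 1000 UMIs and at most 10% mitochondrial UMIs were kept, and UMIs were summed per library and scaled to CPM. Unmapped columns numbered 0. Genes with a mean of at least 5 CPM over both libraries were compared, and "higher" or "lower" in a count means past 2-fold. With 1 library a side there is no replicate check and no test. Ratios carry exact Clopper-Pearson 95% intervals conditional on the summed counts, and shares carry exact binomial intervals. A gene at 0 was set to a floor of 3 counts per library.

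Cells were clustered with scanpy 1.11.5 (2000 variable genes, 40 components, 15 neighbours, resolution 2, 31 clusters) after 418 list, mitochondrial and ribosomal genes and 7403 genes differing between libraries were left out. Clusters were named from marker lists. Doublets were the highest scores at 0.8% per 1000 barcodes, since the automatic threshold marked 0 and 1 cells. This marked 85 atf6-N and 91 mCherry cells. They stayed in the whole-embryo sums, where leaving them out is an alternative. They were left out of the cell class results, the cell shares and the thinned cells. The scripts were tested on simulated data. TMM factors came from edgeR 4.0.16.

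The members and gene lists were chosen with earlier results of these data known. The named genes were the 20 highest and 10 lowest ratios, the 3 largest changes per list, the factors, and the 10 largest excesses over both creb3l1-N and creb3l2-N. Other genes named were chosen after their values were seen.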

Additional observations from a re-analysis of the deposited data

Results flagged for a closer look

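A signal appeared in barcodes that the comparisons leave out, those with at least 1000 UMIs of which over 10% were mitochondrial. They made up 18.8% (17.6 to 20.0) of 4017 atf6-N barcodes and 9.37% (8.45 to 10.4) of 3726 mCherry 40 pg barcodes. The share was 16.5% in creb3l2-N, 7.24% in creb3l1-N, 13.4% in creb3l2-full and 8.31% in mCherry 125 pg. Of their non-mitochondrial UMIs, the ER lumen chaperone list took 5.105% in atf6-N and 0.133% in mCherry 40 pg, against 2.30% and 0.0775% of the UMIs of the barcodes kept. In the other 4 libraries it took between 0.175% and 0.310%. This measure was chosen after seeing the data.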

How the results depend on the processing

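No paired analysis was possible because each side has 1 library. Of the summary results, 161 values under alternatives stayed within the limits set for them and 36 moved. Of the ratios of single genes and of the chaperone list per class, 399 stayed within their counting interval, 149 moved outside it and 1 reversed. The counts of genes at least 2-fold higher and lower were 4770 and 2652 with no filter on low values, 279 and 50 at a mean CPM of at least 20, 1247 and 599 at 1.5-fold, and 358 and 37 at 3-fold. Against both mCherry libraries, an alternative added after seeing the data, 48 were lower. With no filter, members at least 2-fold higher numbered 8 for disulfide isomerases, 7 for the PERK and ATF4 arm, 9 for heat shock, 1 for p53 targets, 12 for sterol synthesis, 3 for phospholipid synthesis and 2 for collagen chains. At a mean CPM of at least 20 they numbered 6 for N-glycosylation, 0 for COPI, 1 for sterol synthesis and 0 for phospholipid synthesis. With the cluster shares of the mCherry library in both, N-glycosylation had 6, COPI 0 and mitochondrial stress 1. Without the cluster of the atf6-N library (added after seeing the data), N-glycosylation had 5 and COPI 0. With mCherry 125 pg as control, the PERK and ATF4 arm had 1, p53 targets 9 and phospholipid synthesis 2, and the bbc3 ratio reversed to 7.716. The share of atf6-N cells above the mCherry limit was 90.02% at the 99th percentile. With cells picked by markers alone, the ratio of shares was 0.6384 for presomitic and marginal mesoderm-like, 1.235 for anterior and 0.7526 for posterior neural ectoderm-like cells. Leaving out each tyr library gave 12 hpf median ratios from 0.7401 to 0.9477 for the 20 highest genes and from 0.9551 to 1.055 for chaperones. The causes were not tested. Gyg1b had no UMI in mCherry 125 pg, so it has no ratio there. TMM factors moved the median log2 ratio from -0.01 to -0.03. A search of promoters for motifs was planned and not run, because no promoter sequences were used here. Depth limits genes under about 1 CPM in a library, whose ratios have wide intervals, and periderm-like and yolk syncytial layer-like cells.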

Other observations

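Among genes outside the lists, chosen after their values were seen, the largest gains in CPM belonged to 2 nuclear proteins. Ptmaa, a prothymosin alpha, stood at 2516 CPM in atf6-N and 162 in mCherry 40 pg (ratio 15.5, 15.2 to 15.8), with 129 in creb3l1-N, 177 in creb3l2-N, 350 in creb3l2-full and 317 in mCherry 125 pg. Hmgn3, a nucleosome-binding protein, stood at 1908 CPM against 43.5 (ratio 43.8, 42.2 to 45.6), with 31.3, 35.6, 83.2 and 79.9 in the same order. At 12 hpf ptmaa had 1020 CPM in the atf6 crispants and 996 and 788 in the tyr crispants. Rab5if had 881 CPM against 202, the forkhead factor gene foxk2 629 against 154, and cyb5a, a cytochrome b5, 418 against 43.2.

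Genes of the Canopy family, whose members are ER proteins, were also high with atf6-N. Cnpy1 had 336 CPM against 6.61 (ratio 50.8, 46.1 to 56.2) and cnpy3 288 against 12.95 (ratio 22.3, 20.7 to 23.9). The alpha-tubulin gene tuba1b had 287 against 6.48 CPM and the lipid phosphatase gene plpp1a 282 against 7.37. In creb3l1-N and creb3l2-N cnpy1 had 8.51 and 6.35 CPM and tuba1b 4.76 and 5.25.

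In cells with at least 10000 UMIs, clstn3 had a UMI in 1554 of 1960 atf6-N cells (79.3%, 77.4 to 81.1) and in 1 of 1864 mCherry cells. Matn1 had one in 14.8% of the atf6-N cells.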
